A study of Mus musculus with 12 samples.

Results

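Complement was followed through 9 genes in mouse GL261 glioblastomas, of which 8 were measured among the 22180 genes of the array table. They were C1qa, C1qb, C1qc, C4b, Cfb, Serping1, C3ar1 and C5ar1. Each was read from the probe set whose annotation names its symbol and no other, and each had exactly 1 such probe set. C3 was on the list as well, but none of the probe sets with a gene name carried it, so C3 is not analysed here. All 8 genes averaged lower in each treated group than in Control, and 0 of the 8 passed limma's adjusted threshold of 0.05 in any comparison.

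GL261, a glioblastoma line of C57BL/6 origin, forms tumours in C57BL/6 mice that keep their immune system. Here it was implanted into the brain of males, 8 weeks old, and the tumour mass gave total RNA on day 16. The 4 groups held 3 arrays each. TMZ animals received temozolomide, an alkylating agent, at 30 mg/kg into the peritoneum. Anti-PD-1 animals received an antibody against PD-1, the inhibitory receptor of T cells, at 10 mg/kg into a vein with 2 injections per week. Combination animals received both agents, and Control animals carried the same tumour. All tumours came from this 1 line. The labels leave out on which days the agents were given, what Control received and whether each array was a separate animal, so p values measure the spread between these samples, which may be technical.

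Complement is a cascade of plasma proteins that marks targets for removal and recruits leukocytes. C1q, a complex of A, B and C chains, starts the classical pathway through the proteases C1r and C1s, which cleave C4 and C2. Factor B serves the alternative pathway, both pathways cleave C3, and the fragments C3a and C5a act on their own receptors on myeloid cells. In the brain microglia are the main makers of C1q, which also marks synapses for removal, and interferons are known to raise factor B, C4 and the C1 inhibitor.

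Signals are log2 RMA values, on a scale that ran from 1.24 to 13.14 over all probe sets, so a difference of 1 is a doubling of signal. Control replicates 1 and 2 stood apart from the other arrays. On the first principal component of all genes, which held 26.6% of the variance, they lay at -20.1 and -26.4, Control replicate 3 lay at -1.28, and the 9 treated arrays lay between -4.10 and 13.9. Pairs of arrays correlated at 0.984 to 0.991 over all probe sets. The masses held transcripts of brain tissue and myeloid cells, with averages of 12.2 for the neuronal Snap25 and 8.45 for the myeloid Csf1r. Genes used as markers of glioma and neural progenitors averaged from 5.15 (Cd44) to 8.92 (Vim), with Sox2 at 8.13. These markers are not particular to the tumour, so its share of the RNA was not measured. In such bulk tissue, fewer cells of a type and less RNA per cell cannot be told apart.

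The upstream sequences of C1qb and C3ar1 are shown as those of a C1q chain and of a receptor that moved together over the arrays. RefSeq's promoter table for GRCm38.p6 held 5 of the 9 listed genes, C3 included. The C1qc and C5ar1 windows overlap the annotated span of their own gene and were searched but are not printed. Each line holds the 250 bases before the gene's start, 5′ to 3′ on the minus strand, at chr4:136886201-136886450 for C1qb and chr6:122856158-122856407 for C3ar1. Capitals mark matches, on either strand, to any of 4 motifs: the PU.1 core GAGGAA, the AP-1 motif TGANTCA, the interferon gamma element GAS (TTCNNNGAA) and the core of the interferon response element ISRE, which is GAAA, any pair of bases and GAAA again.
C1qb: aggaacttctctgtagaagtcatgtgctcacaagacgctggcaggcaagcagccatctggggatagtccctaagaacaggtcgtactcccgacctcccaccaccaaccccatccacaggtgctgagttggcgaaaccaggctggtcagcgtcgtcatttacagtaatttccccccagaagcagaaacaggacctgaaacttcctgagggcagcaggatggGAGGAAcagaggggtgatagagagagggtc
C3ar1: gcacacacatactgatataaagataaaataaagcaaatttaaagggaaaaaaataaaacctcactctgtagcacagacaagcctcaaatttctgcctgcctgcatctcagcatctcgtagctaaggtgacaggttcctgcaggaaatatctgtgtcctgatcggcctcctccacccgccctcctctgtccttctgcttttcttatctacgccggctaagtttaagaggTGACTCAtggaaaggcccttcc
The C1qb window held 1 PU.1 match, 30 to 25 bases before the start, and the C1qc window held 1 as well; 23.3% of 32851 windows of this length held one. PU.1 is a transcription factor of the myeloid lineage. The C3ar1 window held 1 AP-1 match, 22 to 16 bases before the start, a motif found in 6.75% of windows. No motif matched in the C5ar1 window. The C1qb, C1qc, C3ar1 and C5ar1 windows held no GAS or ISRE match, found in 7.02% and 2.98% of windows, which says only that those letters are not in these 250 bases.

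The 3 C1q chain genes, neighbours on chromosome 4, had nearly the same profile over the arrays. C1qa had 8.33, 7.58 and 7.90 in TMZ tumours, 7.61, 7.80 and 8.09 in Anti-PD-1 tumours, 8.04, 8.14 and 8.32 in Combination tumours and 8.70, 8.65 and 8.05 in Control tumours. C1qb had 9.39, 8.69 and 8.98 in TMZ, 8.70, 8.99 and 9.15 in Anti-PD-1, 9.22, 9.27 and 9.55 in Combination and 9.74, 9.86 and 9.15 in Control. C1qc had 7.60, 6.82 and 7.24 in TMZ, 7.0, 7.12 and 7.38 in Anti-PD-1, 7.32, 7.56 and 7.61 in Combination and 7.79, 7.93 and 7.36 in Control. In all 3 genes Control replicates 1 and 2 were the highest arrays and TMZ replicate 2 the lowest, while Control replicate 3 lay among the treated arrays. The groups overlapped with Control in every case but C1qb in Anti-PD-1, where the highest treated array and Control replicate 3 were both at 9.15 after rounding.

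C1qb averaged 9.02 ± 0.35 in TMZ, 8.95 ± 0.23 in Anti-PD-1, 9.35 ± 0.17 in Combination and 9.58 ± 0.38 in Control (SD, n = 3 each). Its log2 difference from Control was -0.57 ± 0.21 (SE) with TMZ, -0.64 ± 0.21 with Anti-PD-1 and -0.24 ± 0.21 with Combination, and limma's adjusted p was 0.334, 0.204 and 0.704. For C1qa the differences were -0.53, -0.63 and -0.30, and for C1qc -0.47, -0.53 and -0.20, in the same order of groups. The Combination intervals of the 3 genes all crossed 0 and ran from -0.75 at the lowest to 0.22 at the highest bound.

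**Figure D1:**
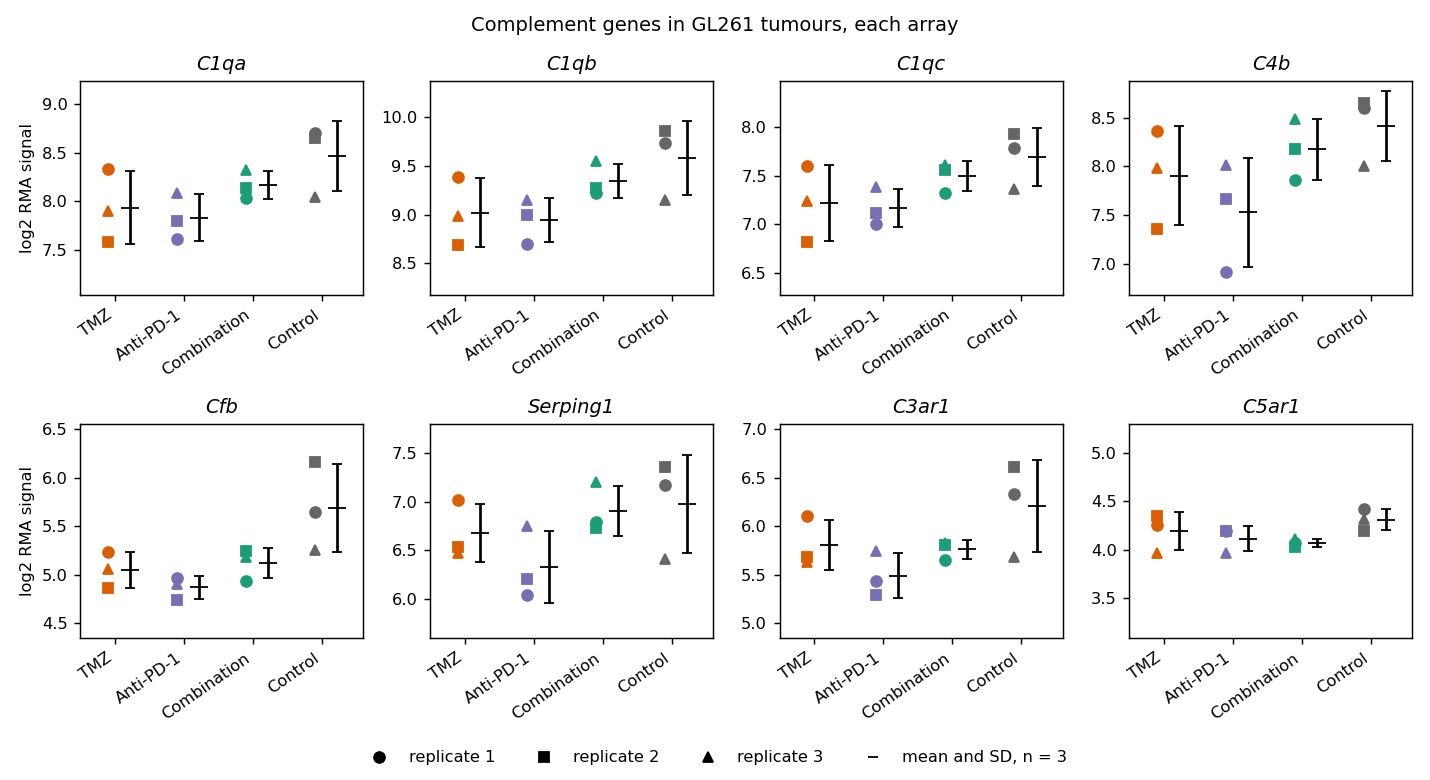
Log2 RMA signal of the 8 measured complement genes on each array, by group, with symbols for the replicate number and bars for the mean and SD of 3 arrays; each panel spans the same range of log2 units. Control replicates 1 and 2 lie above the other arrays in all panels but those of Serping1, where Combination replicate 3 lies between them, and C5ar1, whose whole range over the 12 arrays was 0.45.

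C4b and Cfb encode proteins that form part of the convertases of the classical and alternative pathways, and both lie on chromosome 17. C4b had 8.37, 7.36 and 7.98 in TMZ, 6.91, 7.66 and 8.01 in Anti-PD-1, 7.86, 8.18 and 8.49 in Combination and 8.60, 8.65 and 8.00 in Control. It had the widest range of the 8 genes over the 12 arrays, 1.74, and a low in Anti-PD-1 replicate 1. The log2 difference of C4b from Control was -0.51 ± 0.31 with TMZ, -0.89 ± 0.31 with Anti-PD-1 and -0.24 ± 0.31 with Combination (limma adjusted p = 0.569, 0.231 and 0.81). Mouse C4a is a closely related copy of C4b, and probes could be shared between them. The probe set named C4a ran from 3.23 to 4.30 and differed from Control by 0.10 with TMZ, 0.04 with Anti-PD-1 and -0.36 with Combination.

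Cfb was the gene whose treated arrays kept clear of Control most often. It had 5.23, 4.86 and 5.06 in TMZ, 4.97, 4.74 and 4.90 in Anti-PD-1, 4.94, 5.24 and 5.18 in Combination and 5.65, 6.16 and 5.25 in Control. All 9 treated arrays lay below all 3 Control arrays, though Control replicate 3, at 5.25, was close to the highest treated array at 5.24. Cfb was rather dim, with every array but Control replicate 2 below 5.72, the median level over all genes. Cfb averaged 5.05 ± 0.18 in TMZ, 4.87 ± 0.12 in Anti-PD-1, 5.12 ± 0.16 in Combination and 5.69 ± 0.46 in Control (SD, n = 3 each). The differences from Control were -0.63 ± 0.19 (1.55-fold lower in TMZ), -0.82 ± 0.19 (1.76-fold lower in Anti-PD-1) and -0.57 ± 0.19 (1.48-fold lower in Combination), with limma adjusted p = 0.24, 0.0885 and 0.287. With a variance trend in the limma fit the Anti-PD-1 difference passed at an adjusted p = 0.0262, and with array weights at 0.0364; over the 10 settings that left out no single replicate, the reported one and a fit of the 6 Anti-PD-1 and Control arrays alone included, it ranged from 0.0262 to 0.766.

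Serping1 encodes the C1 inhibitor, which inactivates C1r and C1s. It had 7.02, 6.54 and 6.47 in TMZ, 6.04, 6.21 and 6.75 in Anti-PD-1, 6.79, 6.73 and 7.20 in Combination and 7.17, 7.36 and 6.41 in Control. Control replicate 3 was below all TMZ and Combination arrays, and the groups overlapped throughout. The differences from Control were -0.31 ± 0.26, -0.65 ± 0.26 and -0.08 ± 0.26 for TMZ, Anti-PD-1 and Combination (limma adjusted p = 0.695, 0.291 and 0.93). The Combination difference turned positive when Control replicate 1, Control replicate 2 or Combination replicate 2 was left out, at 0.02, 0.11 and 0.01.

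The receptors of the anaphylatoxins C3a and C5a differed from each other. C5ar1 was dim, with all its arrays below 5.72, the median level over all genes. C3ar1 had 6.10, 5.68 and 5.63 in TMZ, 5.44, 5.29 and 5.74 in Anti-PD-1, 5.65, 5.81 and 5.83 in Combination and 6.33, 6.61 and 5.68 in Control. Control replicates 1 and 2 were again highest and Control replicate 3 was within the treated range. Its differences from Control were -0.41 ± 0.21, -0.72 ± 0.21 and -0.45 ± 0.21 (limma adjusted p = 0.494, 0.161 and 0.438). C5ar1 had 4.26, 4.35 and 3.97 in TMZ, 4.19, 4.19 and 3.97 in Anti-PD-1, 4.07, 4.03 and 4.11 in Combination and 4.42, 4.20 and 4.32 in Control. The Anti-PD-1 and Combination arrays of C5ar1 lay below all Control arrays, the highest at 4.19 and 4.11 against a lowest Control array of 4.20. Its differences of -0.12 ± 0.10, -0.20 ± 0.10 and -0.25 ± 0.10 (limma adjusted p = 0.691, 0.414 and 0.388) were the smallest of the 8 genes with TMZ and Anti-PD-1.

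Set against the background of all genes, the counts were as follows. With TMZ, 8 of 8 genes were lower than in Control, with a median log2 difference of -0.49; over all genes 47.9% were lower and the median was 0.01. With Anti-PD-1 it was also 8 of 8, with a median of -0.64, beside 47.6% lower and a median of 0.01 over all genes. With Combination it was 8 of 8 at a median of -0.24, beside 49.8% lower and a median of 0.00. These comparisons share their Control arrays, so the counts are not independent of each other. Most of the 8 genes also shared a profile over the arrays, so they are not separate observations here or in the counts below.

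By limma's adjusted p 0 of 8 genes were called with TMZ, where 0.0992% of all genes were, 0 of 8 with Anti-PD-1 (0.293% of all genes) and 0 of 8 with Combination (0% of all genes). At an unadjusted p under 0.05, 4 genes were lower with TMZ (5.78% of all genes), 7 with Anti-PD-1 (6.79%) and 2 with Combination (6.18%). Arrays did not overlap with Control in 1 gene with TMZ (6.81% of all genes lower), 3 with Anti-PD-1 (8.33%) and 2 with Combination (7.82%). The moderated F test among the 4 groups called 0 of 8, with adjusted p from 0.293 to 0.623, against 0.00451% of all genes. At an unadjusted p under 0.05 that test gave 4 of 8, namely C1qa, C1qb, C3ar1 and Cfb, and 10.1% of all genes.

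The number of the 8 genes called turned on 1 array, Control replicate 3. Without it, limma called 4 of the 8 genes with Anti-PD-1: Cfb at -1.04 (adjusted p = 0.0069), C3ar1 at -0.98 (0.0115), C1qb at -0.85 (0.0398) and C1qa at -0.84 (0.0476). It then also called Cfb with TMZ (-0.85, adjusted p = 0.0263) and with Combination (-0.79, 0.0437). The number of all genes called at the same time was 363 with TMZ, 686 with Anti-PD-1 and 282 with Combination, and the F test then called 245 genes, 1 of the 8 among them. Without any other array 0 of the 8 were called. Median differences were -0.70 with TMZ, -0.89 with Anti-PD-1 and -0.45 with Combination without Control replicate 3, and -0.38, -0.51 and -0.17 without Control replicate 2. Without TMZ replicate 2 the TMZ median was -0.31, and without Combination replicate 3 the Combination median was -0.36.

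**Figure D2:**
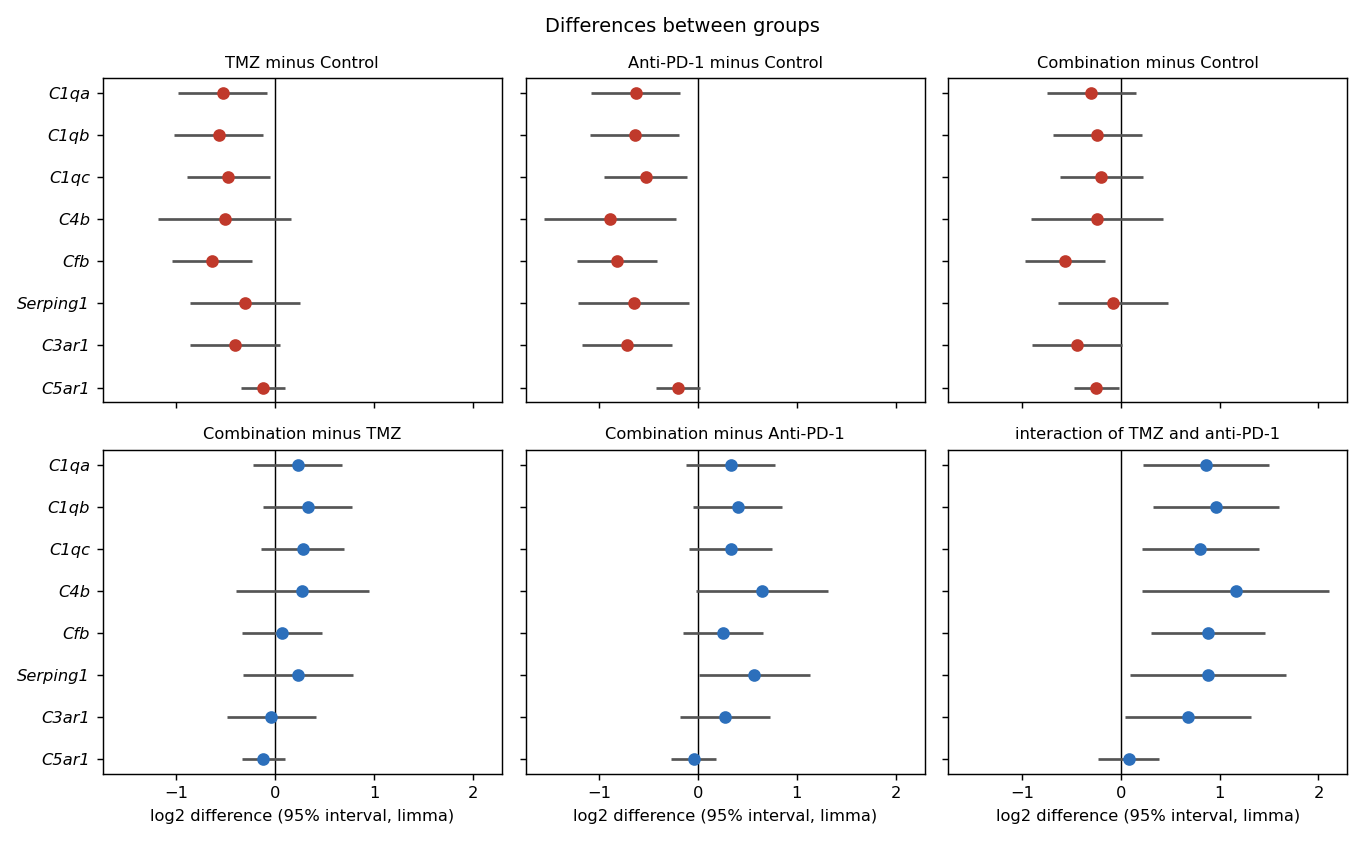
Log2 differences of the 8 genes with 95% intervals from limma, for each treated group against Control in the upper row and for Combination against the single agents and the interaction in the lower row. Point estimates against Control all lie left of 0; those of Combination against the single agents lie mostly right of it, and 0 of 8 genes passed the adjusted threshold in any panel.

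Combination was set against each single agent to see what the second agent added. Against TMZ, 6 of the 8 genes averaged higher in Combination, at a median of 0.23, and against Anti-PD-1 7 of 8 did, at a median of 0.33; over all genes 48.8% and 47.8% were higher. By limma 0 of 8 genes were called in either comparison, as were 0% of all genes, with adjusted p of 1 and 0.9996 throughout. At an unadjusted p under 0.05 they numbered 0 against TMZ (1.76% of all genes higher) and 1 against Anti-PD-1, Serping1 at 0.57 ± 0.26 with an interval from 0.01 to 1.13, where 2.01% of all genes were higher. C4b was 0.65 above Anti-PD-1 with an interval from -0.02 to 1.32. The C1qb arrays of Combination lay above all Anti-PD-1 arrays, a pattern that 4.87% of all genes showed. The Combination minus TMZ median was 0.42 without TMZ replicate 1, 0.03 without TMZ replicate 2 and 0.10 without Combination replicate 3.

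No gene passed the test between the single agents. All 8 genes averaged higher in TMZ than in Anti-PD-1, at a median difference of 0.14, where 49.5% of all genes were higher. Limma called 0 of 8 genes and 0% of all genes, and 0 of the 8 had an unadjusted p under 0.05, against 2.11% of all genes on the higher side. The intervals of TMZ minus Anti-PD-1 allowed -0.30 to 1.05 for C4b and -0.38 to 0.52 for C1qb. Without TMZ replicate 1 the median was 0.07 and without TMZ replicate 2 it was 0.28.

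The interaction asks whether the agents' effects add on the log2 scale; it sets the step that anti-PD-1 made on top of TMZ against the step it made alone. It was positive in all 8 genes, at a median of 0.87, beside 46.2% of genes and a median of -0.02 over all genes. Control enters it with a plus sign, so it is not independent of the differences from Control. Among the marker lists described below, medians were also positive for interferon-stimulated genes (1.76), mitosis genes (0.71) and microglia (0.36). Other lists were negative, such as endothelium at -0.44. C4b stood at 1.16 ± 0.44, C1qb at 0.97 ± 0.29, Cfb at 0.89 ± 0.26, Serping1 at 0.88 ± 0.36 and C5ar1 at 0.08 ± 0.14. By limma 0 of 8 genes were called (adjusted p from 0.365 to 0.899), against 0.00451% of all genes, and 7 had an unadjusted p under 0.05 on the positive side, against 4.65% of all genes. Without Control replicate 3 the median was 1.09 and Cfb passed (1.11, limma adjusted p = 0.0402), as 1 of 198 genes called in all; without Control replicate 1 it was 0.77 and without Control replicate 2 it was 0.69.

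Over the 12 arrays the genes fell into a close C1q trio, 4 genes that followed it and C5ar1, which did not. Pearson's r within C1q lay between 0.974 and 0.984 over 12 arrays, and Spearman's rho between 0.951 and 0.986. For the 18 other pairs among the 7 genes without C5ar1, r lay between 0.706 (C4b and Cfb) and 0.933 (C1qa and C4b). For the 7 pairs with C5ar1, r lay between 0.03 and 0.311. After each group's mean was taken out, r was 0.951 to 0.977 within C1q, 0.513 to 0.922 for the 18 pairs and -0.371 to -0.139 for the pairs with C5ar1. The points share their arrays and the normalisation, and these values are a description.

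Genes with the profile most like each member were taken from 19340 genes outside the complement system, symbols of predicted genes and clones left out, by Pearson's r over the 12 arrays. For the mean of the C1q genes they were Unc93b1, a chaperone of endosomal Toll-like receptors (0.988), Cd180 (0.978), Cd52 (0.976), the signalling adaptor gene Tyrobp (0.971) and the lysosomal protease gene Ctsd (0.970), and 106 genes exceeded an r of 0.9. For C4b they were the protease gene Ctss (0.980), B2m, the light chain of MHC class I (0.975), the GTPase gene Igtp (0.971), the MHC class II gene H2-Ab1 (0.956) and Ly6i (0.955). For Cfb they were Tcf12 (0.985), the progranulin gene Grn (0.964), the protease inhibitor gene Timp1 (0.963), Crybb1 (0.960) and Irf7 (0.960). For Serping1 they were Med29 (0.951), Uba7 (0.948), Samhd1 (0.945), Plxnb2 (0.938) and the chemokine gene Cxcl9 (0.935). For C3ar1 they were Ifi204 (0.976), H2-T24 (0.969), Gbp9 (0.963), Ifi30 (0.961) and the condensin gene Smc2 (0.957). C5ar1 had 1 gene above 0.9, Tepp (0.903), followed by Kmt5a (0.874), Sgk1 (0.862), Mir1932 (0.849) and Cd14 (0.848).

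Some of the marker lists moved beside the complement genes and others did not. A list score is the average, over the genes of a list, of each gene's deviation from its own 12-array mean (log2). The mean score of the 8 complement genes ran from -0.34 to 0.21 in TMZ, -0.47 to -0.08 in Anti-PD-1, -0.09 to 0.21 in Combination and -0.05 to 0.60 in Control. Microglia scores (11 of 12 markers measured) ran from -0.24 to 0.05, -0.11 to 0.02, -0.01 to 0.07 and 0.03 to 0.19 in the same order of groups. All 11 microglia markers averaged lower than Control in TMZ and in Anti-PD-1 and 8 of 11 did in Combination, with medians of -0.24, -0.13 and -0.10. Both the microglia score and the C1q genes were lowest in TMZ replicate 2. With Anti-PD-1 the 11 markers ran from -0.43 (Olfml3) to -0.01 (Tmem119), and with TMZ from -0.40 (Fcrls) to -0.06 (Gpr34). Limma called 0 of 11 with any treatment, beside 0.0992%, 0.293% and 0% of all genes with TMZ, Anti-PD-1 and Combination.

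With the microglia score as a covariate in limma, the median difference of the 8 genes from Control was 0.14 with TMZ, -0.11 with Anti-PD-1 and 0.05 with Combination, and the interaction was -0.03. With the neuron score as a covariate these were -0.40, -0.37, -0.18 and 0.57. The neuron list itself differed from Control by medians of 0.04, 0.06 and 0.03 with TMZ, Anti-PD-1 and Combination. A score that differs between groups takes part of the group difference with it in such a fit.

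Interferon-stimulated genes had a wider range than any of the other lists. Their scores (12 of 15 measured) ran from -0.55 to 0.18 in TMZ, -0.89 to -0.31 in Anti-PD-1, -0.07 to 0.24 in Combination and 0.08 to 1.20 in Control, with Control replicate 2 highest and Anti-PD-1 replicate 1 lowest. The complement genes' mean score was highest and lowest in the same 2 arrays. Median differences of the interferon list from Control were -1.02, -1.39 and -0.61 for TMZ, Anti-PD-1 and Combination, with 0, 2 and 0 of 12 genes called by limma. Monocyte and macrophage markers were at medians of -0.10, -0.25 and -0.04, with 0, 1 and 0 of 11 called. Mitosis genes were at -0.78, -0.77 and -0.84, with 1, 4 and 0 of 10 called, and all 10 lay below Control without overlap in each treated group. Over all genes limma called 0.0992%, 0.293% and 0% with TMZ, Anti-PD-1 and Combination. The shares below Control without overlap were 6.81%, 8.33% and 7.82%. The part of any marker list in the complement differences was not tested. The fits with a microglia or neuron covariate are no such test, because both scores come from the same arrays and differ between groups.

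Medians of the remaining lists from Control with Anti-PD-1 were -0.06 for T cells, 0.05 for neutrophils, -0.07 for astrocytes and -0.02 for oligodendrocytes. They were -0.02 for choroid plexus and ependyma, 0.12 for endothelium and 0.14 for fibroblasts and pericytes. With TMZ these lists were at -0.21, 0.04, -0.05, -0.05, 0.07, 0.40 and 0.11, in the same order. With Combination they were at -0.11, 0, -0.04, -0.12, 0.04, 0.20 and 0.12. Glioma and neural progenitor markers were at -0.27, -0.35 and -0.21 with TMZ, Anti-PD-1 and Combination. In each, 6 of 7 were lower than Control, and limma called 0, 1 and 0, beside 0.0992%, 0.293% and 0% of all genes. The astrocyte list was mixed, with 3 of its 8 genes higher than Control and 5 lower in each treated group. Its lowest member was Gfap, the astrocyte filament gene, at -0.49, -0.59 and -0.40 with TMZ, Anti-PD-1 and Combination.

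**Figure D3:**
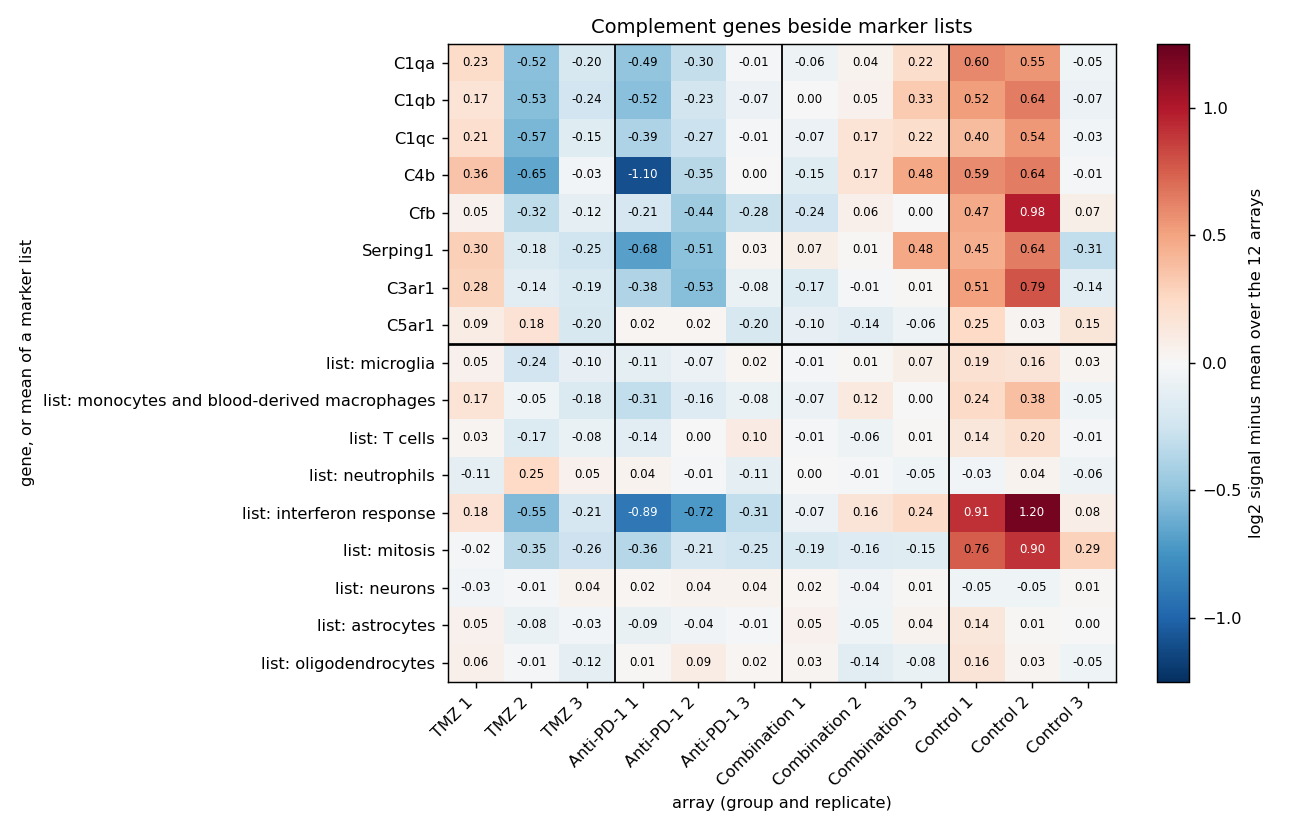
Log2 signal minus the mean over the 12 arrays for the 8 complement genes (upper rows) and mean scores of 9 marker lists (lower rows), with 1 column per array. Control replicates 1 and 2 are high in the rows of 7 complement genes. They are also the highest arrays in the interferon, mitosis, microglia, monocyte and macrophage, and T cell lists. Among the 8 gene rows that of C5ar1 varies least, by 0.45 in all.

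Of the rest of the complement system, 45 of 48 listed genes were measured. By limma 0 of 45 were called against Control with any treatment, with the background shares given above. In either direction 8, 9 and 4 of 45 had an unadjusted p under 0.05 with TMZ, Anti-PD-1 and Combination, beside 11.3%, 13.5% and 11.6% of all genes. Median differences were 0.01, 0.04 and -0.04, beside 0.01, 0.01 and 0.00 over all genes. The early components of the classical and lectin pathways were lower than Control in 12 of 14 genes with TMZ, 10 with Anti-PD-1 and 14 with Combination, at small medians of -0.08, -0.12 and -0.12. The 7 terminal components, which form the membrane attack pore, had medians of 0.07, 0.04 and -0.10. The measured early components averaged from 2.35 (C1s2) to 5.45 (Masp1) and the terminal components from 3.70 (C6) to 4.36 (C7). All lay below 5.72, the median level over all genes. Small differences in such dim genes do not show that they were unchanged. The regulators were mostly higher, in 14, 14 and 13 of 16 genes, with medians of 0.11, 0.10 and 0.10; some, such as Csmd1, Csmd2 and Csmd3, are known from the nervous system.

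The 4 of these genes with the smallest F test p were Itgb2, Csmd3, Itgax and C8a (F adjusted p = 0.213, 0.351, 0.436 and 0.447). Itgb2 encodes the shared beta chain of complement receptors 3 and 4 on leukocytes. It had 6.38, 5.95 and 6.04 in TMZ, 5.89, 6.07 and 6.33 in Anti-PD-1, 6.42, 6.60 and 6.69 in Combination and 6.69, 6.86 and 6.49 in Control. All TMZ and Anti-PD-1 arrays of Itgb2 lay below both the Combination and the Control arrays, Control replicate 3 included. The differences of Itgb2 from Control were -0.55 ± 0.14, -0.58 ± 0.14 and -0.11 ± 0.14 (limma adjusted p = 0.181, 0.1 and 0.811), and its interaction was 1.02 ± 0.20 (limma adjusted p = 0.19). Itgax, the alpha chain of complement receptor 4, was at -0.59, -0.46 and -0.24, and Itgam, that of complement receptor 3, at -0.24, -0.33 and -0.17. Csmd3, a membrane protein with complement control domains, was at 0.22, 0.25 and 0.19, and C8a, a chain of the pore component C8, at -0.21, -0.11 and -0.22.

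**Figure D4:**
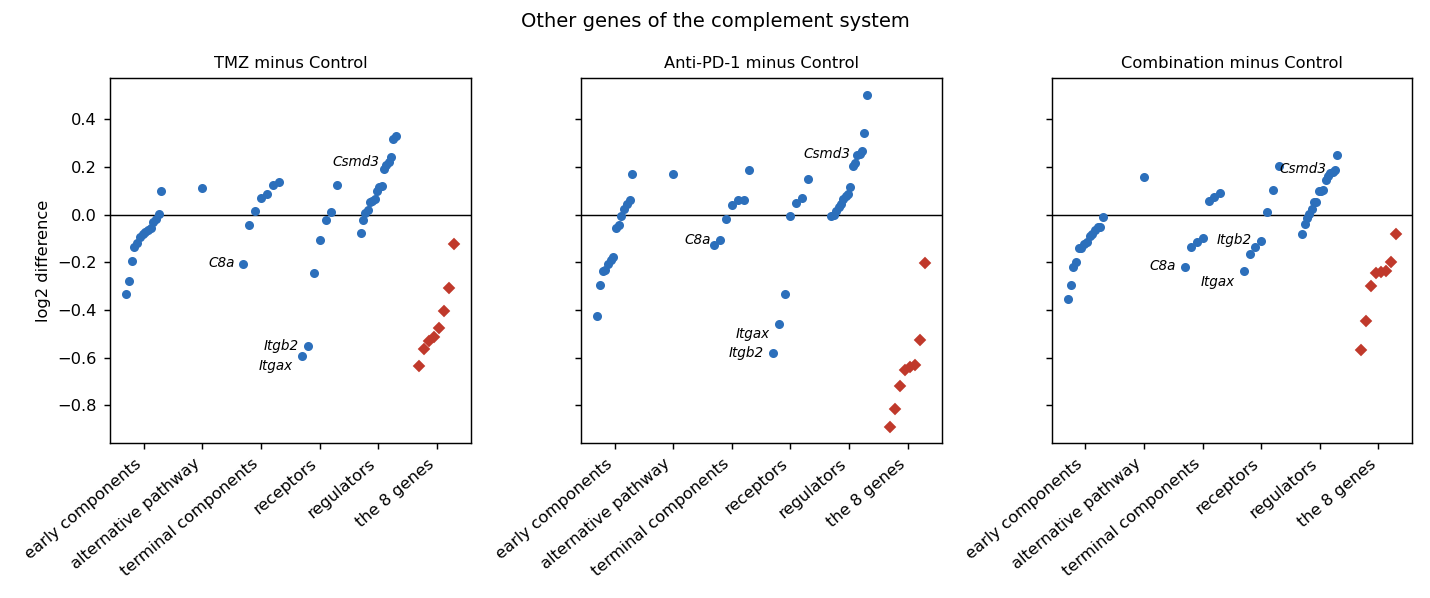
Log2 differences from Control of 45 other genes of the complement system, 1 blue point per gene grouped by role, beside the 8 genes of this account as red diamonds, for TMZ, Anti-PD-1 and Combination. The other genes scatter around 0 with medians of 0.01, 0.04 and -0.04, with Itgb2 and Itgax lowest among the receptors in TMZ and Anti-PD-1. All early and terminal components shown are dim, with averages below the median level of 5.72 over all genes.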

How the data were processed

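Total RNA of GL261 tumours was measured on 12 Affymetrix arrays. RMA and the Affymetrix Expression Console are the tools named in the submitters' processing notes; the version and genome build are not given in the sources used here. The authors deposited log2 signals of 41345 probe sets. RMA equalises array distributions, so a shift common to all genes would not be seen. Arrays give no read depth, and 3 per group limit the precision. The array annotation named 1 symbol for 23521 probe sets, several for 1814 and did not list 16010; of the first, the brightest per symbol gave 22180 genes. Genes were tested by limma 3.58.1, run in R 4.3.3 (a mean per group, all 12 arrays, 8 residual degrees of freedom, eBayes), two-sided, Benjamini-Hochberg adjusted over all genes at 0.05; errors of differences are SE. The script was tested on simulated data. Members always named were the listed genes; of the other complement genes, those called or else the 4 with the smallest F test p. The members, lists and alternatives were chosen with earlier results of these data known. Alternatives covered the variance trend, array weights, arrays in the fit, probe sets, brightness, centring, replicate block, covariates and leaving out each array. Promoter sequences are RefSeq's.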

Additional observations from a re-analysis of the deposited data

How the results depend on the processing

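The 8 genes' median differences kept their sign without any single array, with ranges of -0.70 to -0.31 for TMZ, -0.89 to -0.51 for Anti-PD-1 and -0.45 to -0.17 for Combination, each minus Control. They were 0.03 to 0.42 for Combination minus TMZ, 0.26 to 0.45 for Combination minus Anti-PD-1, 0.07 to 0.28 for TMZ minus Anti-PD-1 and 0.69 to 1.09 for the interaction. The number of the 8 genes called ranged from 0 to 1 for TMZ, 0 to 4 for Anti-PD-1 and 0 to 1 for Combination against Control, 0 to 1 for the interaction and 0 to 1 for the F test, and was 0 throughout for the other comparisons. With a variance trend 1 gene was called with Anti-PD-1 and with array weights also 1, Cfb in both. The neuron covariate moved the Anti-PD-1 minus Control median to -0.37 and the interaction to 0.57. The microglia covariate gave 0.14, -0.11 and 0.05 for TMZ, Anti-PD-1 and Combination against Control, -0.13 for Combination minus TMZ and -0.03 for the interaction. The cause of these moves was not tested.

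Signs of single genes, all short of the threshold, turned under the covariates. With the microglia covariate TMZ minus Control was 0.17, 0.10 and 0.16 for C1qa, C1qb and C1qc, 0.12 for C3ar1, 0.45 for C4b and 0.40 for Serping1. Combination minus Control was then 0.03, 0.08 and 0.10 for the C1q genes, 0.22 for C4b and 0.26 for Serping1. Combination minus TMZ was -0.14, -0.02 and -0.06 for the C1q genes, -0.24 for C4b, -0.12 for Cfb and -0.15 for Serping1. The interaction was -0.07 for C1qa, -0.03 for C1qc, -0.02 for C3ar1, -0.13 for C4b and -0.07 for Serping1. With the neuron covariate Serping1 was at 0.05 for Combination minus Control, the C1q genes at -0.04, -0.06 and -0.07 for TMZ minus Anti-PD-1, and C5ar1 at -0.01 for the interaction. Leaving out single arrays turned Serping1 for Combination minus Control (-0.36 to 0.11), C3ar1 and Cfb for Combination minus TMZ (-0.13 to 0.11 and -0.03 to 0.16), C1qa, C1qb, C1qc and C5ar1 for TMZ minus Anti-PD-1 (-0.10 to 0.28, -0.11 to 0.24, -0.14 to 0.25 and 0.00 to 0.19) and C5ar1 for the interaction (-0.03 to 0.16).

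With the replicate number as a block, 0 of the 8 genes were called in any comparison and the medians were the same. In all, 4 genes were called with TMZ and 20 with Anti-PD-1, against 22 and 65 without the block. Deviations of same-numbered arrays from their group means correlated above 0.1 in 1 of 18 pairs. Those of different-numbered arrays did so in 6 of 36. The labels do not say what the number stands for. With 3 arrays per group these values cannot show whether same-numbered arrays share a batch. Over all genes the TMZ, Anti-PD-1 and Combination counts against Control, 22, 65 and 0 as reported, were 113, 381 and 42 with a variance trend, 38, 260 and 17 with array weights, 14, 205 and 3 among genes above the median level, and 1, 2 and 0 over all probe sets. They were 22, 43 and 0 with centred arrays, 2, 0 and 0 with the neuron covariate, and 0 for all 3 with the microglia covariate or with only the groups compared. Without single arrays they ran from 0 to 363, 1 to 686 and 0 to 282. The F test called 1 gene as reported, 90 with a variance trend, 9 with array weights, 5 with the block, 4 with the mean of a gene's probe sets and 2 among brighter genes. The interaction called 1 as reported and 12 with a variance trend.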
